A study of Mus musculus with 6 samples.

Results

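The annexins are proteins that bind acidic membrane phospholipids when calcium rises. The annexin genes described here are Anxa1, Anxa2, Anxa3, Anxa4, Anxa5, Anxa6, Anxa7, Anxa8 and Anxa11, which were chosen by gene symbol: 9 of the 55401 genes in the table. Messenger RNA was sequenced from mouse hepatic stellate cells, the vitamin A-storing pericytes of the liver, after 7 days in serum-containing culture. The compared groups were 3 libraries from mice heterozygous for S100a16 (S100a16+/-) and 3 libraries from wild-type mice (WT), both on the C57BL/6J background. The labels do not give the age or sex of the mice, how the S100a16 allele was made, or whether each library is a separate animal, which means that p-values here reflect the spread among these libraries only. The question was which genes differ in cultured stellate cells when S100a16, an EF-hand calcium-binding protein gene, is reduced.

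Each annexin has a conserved core built of repeats that hold calcium against the membrane, and a variable N-terminal part that binds other proteins. Several S100 proteins, small calcium sensors of the same family as S100a16, bind annexins through that N-terminal part. Annexins take part in membrane repair, vesicle traffic, the control of inflammation and the recognition of phosphatidylserine on dying cells. All 9 genes carry the term for calcium-dependent phospholipid binding in the annotation deposited with the table. They lie on 7 chromosomes, with Anxa7, Anxa8 and Anxa11 all on chromosome 14, and their coordinates were the same as in GENCODE M21 for GRCm38 for 9 of 9.

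Depth and the state of the cultures bear on every value. The libraries held 61979103 to 76291481 counts. S100a16 had an FPKM (fragments per kilobase of gene, scaled to library size) of 18.0, 17.7 and 30.0 in S100a16+/- replicates 1 to 3, against 57.7, 58.8 and 56.8 in WT replicates 1 to 3. S100a16+/- replicate 3 stood apart: its correlation with S100a16+/- replicates 1 and 2 was 0.930 and 0.929 across genes, against 0.987 between those libraries. It also had the X-inactivation transcript Xist at 32.2 FPKM, against at most 0.0323 in the other 5 libraries, and the Y-linked gene Ddx3y at 0.0102 FPKM, against 12.1 to 15.8 in the others. By these genes it had a female pattern and the other 5 libraries a male one. The summed FPKM of 10 stellate and myofibroblast markers, led by Acta2 and Tagln, was 1092, 1064 and 147 in S100a16+/- and 929, 1026 and 1039 in WT. The retinoid enzyme gene Lrat, which marks resting stellate cells, was at or below 0.0517 FPKM in every library. The 10 macrophage and Kupffer cell markers, led by Lyz2 and Marco, summed to 15650, 16828 and 11282 FPKM in S100a16+/- and 8753, 9047 and 8604 FPKM in WT, far above the stellate sum in each library. Lyz2 and Marco made up most of that sum. Of the 10 genes, 5 (Adgre1, Cd5l, Cd68, Lyz2 and Marco) had all S100a16+/- values above all WT values, Timd4 had all of them below, and Clec4f, Vsig4, Csf1r and C1qa overlapped. The 8 endothelial markers, led by Cdh5 and Oit3, summed to 656, 624 and 1577 FPKM in S100a16+/- and 1443, 1310 and 1339 FPKM in WT. The 6 mesothelial markers, led by Upk3b and Upk1b, summed to 111, 108 and 10.6 FPKM in S100a16+/- and 90.4, 121 and 125 FPKM in WT. The 7 hepatocyte markers in the table, led by Alb and Ahsg, summed to 8.64, 8.88 and 489 FPKM in S100a16+/- and 100.4, 88.8 and 67.8 FPKM in WT. Biliary markers, led by Tspan8 and Krt19, summed to at most 10.6 FPKM and neutrophil markers, led by Csf3r and S100a8, to at most 31.5 FPKM. The neutrophil markers S100a9, Ly6g and Retnlg had no counts. Lymphocyte markers, led by Nkg7 and Cd79a, summed to at most 0.465 FPKM. In such bulk libraries, fewer cells of a type and less RNA per cell cannot be told apart. The part of cell mix in the annexin values below was not tested.

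Annexin transcripts were abundant, and the same pair of genes led in every library. FPKM values are corrected for gene length, so levels can be set side by side. Anxa5 encodes the annexin used to stain exposed phosphatidylserine, and Anxa2 the annexin that pairs with S100A10 at the plasma membrane. Anxa5 made up 42.9%, 43.1% and 47.8% of the summed annexin FPKM in S100a16+/- replicates 1 to 3, and 45.8%, 44.5% and 45.1% in WT. Anxa2 made up 20.8%, 19.8% and 21.1% in S100a16+/- and 22.7%, 23.4% and 24.1% in WT. The order in all 3 WT libraries was Anxa5, Anxa2, Anxa6, Anxa1, Anxa3, Anxa7, Anxa4, Anxa11 and Anxa8. The neighbours Anxa7 and Anxa4 were the closest in WT, at 18.8 ± 1.95 and 16.2 ± 1.0 FPKM (SD, n = 3), and the lowest Anxa7 value of 17.4 nearly met the highest Anxa4 value of 17.1.

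In S100a16+/- replicates 1 and 2 the order was Anxa5, Anxa2, Anxa1, Anxa3, Anxa6, Anxa4, Anxa7, Anxa11 and Anxa8, so Anxa6 stood behind Anxa1 and Anxa3 and Anxa4 stood ahead of Anxa7. Replicate 3 kept the WT order apart from Anxa3 and Anxa1, which changed places. Over the 3 S100a16+/- libraries the levels of Anxa1, Anxa3 and Anxa6 overlapped, and so did those of Anxa4 and Anxa7. Summed over the 9 genes, FPKM came to 842, 836 and 713 in S100a16+/- and to 911, 909 and 922 in WT. The S100a16+/- mean was 797 ± 73.0, or 839 without replicate 3, and the WT mean was 914 ± 7.14 (SD, n = 3 each).

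**Figure D1:**
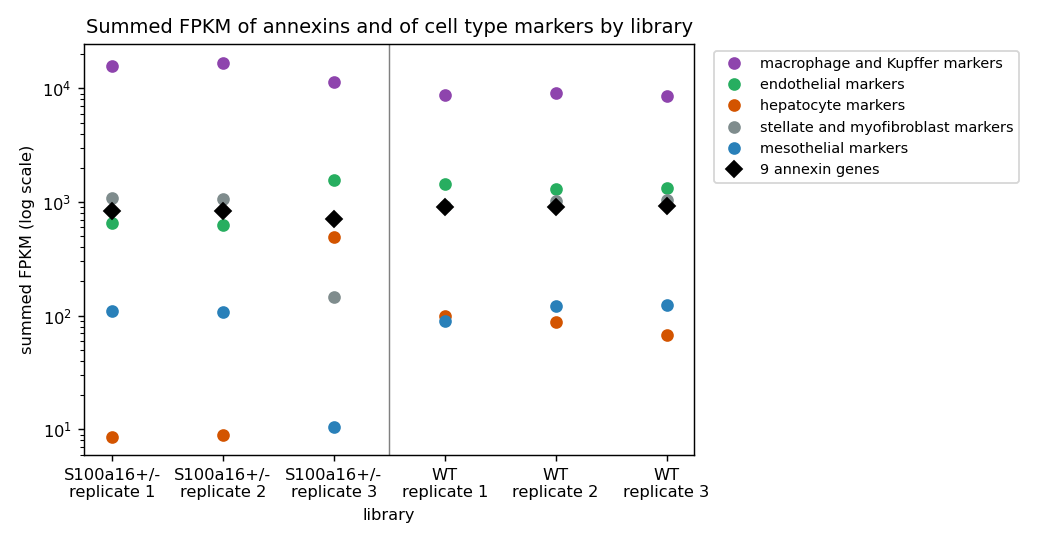
Summed FPKM on a log axis in each library, for the 9 annexin genes (black diamonds) and for marker lists of 5 cell types (coloured circles), with S100a16+/- libraries left of the line and WT libraries right of it. The annexin sum stayed between 713 and 922 FPKM, while the stellate and myofibroblast sum in S100a16+/- replicate 3 was 147 FPKM and the macrophage sums of the S100a16+/- libraries were all above those of WT.

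The sequences around the start sites show how differently these genes begin. RefSeq windows of 250 bases before to 50 bases after a start site (GRCm38.p6) were found for 7 of the 9 genes, and all but Anxa3 and Anxa6 are among them. The 4 shown belong to the most abundant pair, to Anxa4, which had the largest log2 change among the tested members, and to Anxa1, whose level was the most uneven within S100a16+/- among the tested members. Capitals mark TATAAA (the TATA box), GGGCGG (the GC box), CCAAT and TGANTCA (the AP-1 motif), each searched on both strands, and no match overlapped another. The RefSeq start lay 273 bases from the deposited gene start for Anxa1 and at most 63 bases from it for the others shown. Sequences run 5′ to 3′ on the gene's strand.
Anxa2, chr9:69453433-69453732, plus strand: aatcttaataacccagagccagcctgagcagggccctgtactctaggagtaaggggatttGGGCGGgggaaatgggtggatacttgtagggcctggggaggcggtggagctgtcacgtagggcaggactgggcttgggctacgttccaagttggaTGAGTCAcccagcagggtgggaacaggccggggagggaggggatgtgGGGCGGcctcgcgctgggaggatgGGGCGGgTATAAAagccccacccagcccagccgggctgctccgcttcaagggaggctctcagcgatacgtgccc
Anxa5, chr3:36475838-36476137, minus strand: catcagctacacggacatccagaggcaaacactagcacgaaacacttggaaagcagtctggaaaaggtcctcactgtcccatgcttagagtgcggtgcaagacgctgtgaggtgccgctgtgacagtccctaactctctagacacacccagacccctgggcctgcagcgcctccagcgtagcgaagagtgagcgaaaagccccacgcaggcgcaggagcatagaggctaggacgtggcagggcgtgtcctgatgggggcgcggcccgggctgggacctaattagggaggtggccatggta
Anxa4, chr6:86793535-86793834, minus strand: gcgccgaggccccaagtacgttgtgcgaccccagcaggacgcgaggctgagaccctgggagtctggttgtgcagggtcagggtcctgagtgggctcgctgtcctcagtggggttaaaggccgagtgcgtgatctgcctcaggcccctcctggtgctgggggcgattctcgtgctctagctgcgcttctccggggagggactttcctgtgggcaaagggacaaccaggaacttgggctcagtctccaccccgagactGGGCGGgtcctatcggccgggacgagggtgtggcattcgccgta
Anxa1, chr19:20390622-20390921, minus strand: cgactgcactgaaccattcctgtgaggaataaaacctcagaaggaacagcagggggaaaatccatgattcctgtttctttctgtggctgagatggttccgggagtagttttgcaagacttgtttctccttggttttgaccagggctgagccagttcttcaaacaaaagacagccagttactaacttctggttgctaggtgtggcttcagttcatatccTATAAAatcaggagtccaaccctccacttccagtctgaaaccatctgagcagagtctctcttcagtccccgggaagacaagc

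The Anxa2 window held TATAAA, 3 copies of GGGCGG and the AP-1 match TGAGTCA, and was 63.7% G and C. The Anxa5 window held none of the motifs although it was 60.3% G and C, and the Anxa4 window shown held a GGGCGG just after the start site. A further RefSeq window of Anxa4, not shown, began 18470 bases from the deposited gene start. It held none of the motifs and was 43.0% G and C. The Anxa1 window held TATAAA and was 47.3% G and C. Among all 32851 RefSeq windows, 13.6% held TATAAA, 35.7% GGGCGG, 37.4% CCAAT and 7.81% TGANTCA, and the median G and C content was 52.7%. A match is a string of letters, not a measured binding site.

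Set against WT, 7 of the 8 tested annexins had S100a16+/- FPKM values that did not overlap the WT values, as did 31.4% of all tested genes, and none passed the test over all genes. To be tested, a gene had to reach 1 FPKM in 3 or more libraries, which left out Anxa8 among the members. Of 12766 tested genes, 570 (4.46%) were called at an adjusted p under 0.05 with edgeR's quasi-likelihood test, 364 (2.85%) higher and 206 (1.61%) lower. The split was 282 higher and 252 lower with library totals in place of TMM, and 260 and 247 with limma on log2(FPKM + 1). No member was called by edgeR or limma. By unadjusted p, 7 of 8 passed 0.05 with limma and 6 of 8 had an unadjusted edgeR p under 0.05, as did 22% of all tested genes. DESeq2 called 5 of 8, and 14.9% of all genes. On counts scaled to library size with TMM (CPM) the groups of 7 of 8 members, and of 30.1% of all tested genes, did not overlap. With Anxa9, an annexin gene outside the members, the count was 7 of 9. The median log2 change of the 8 was -0.12, against 0.00 over all tested genes, and the members differed in sign.

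**Figure D2:**
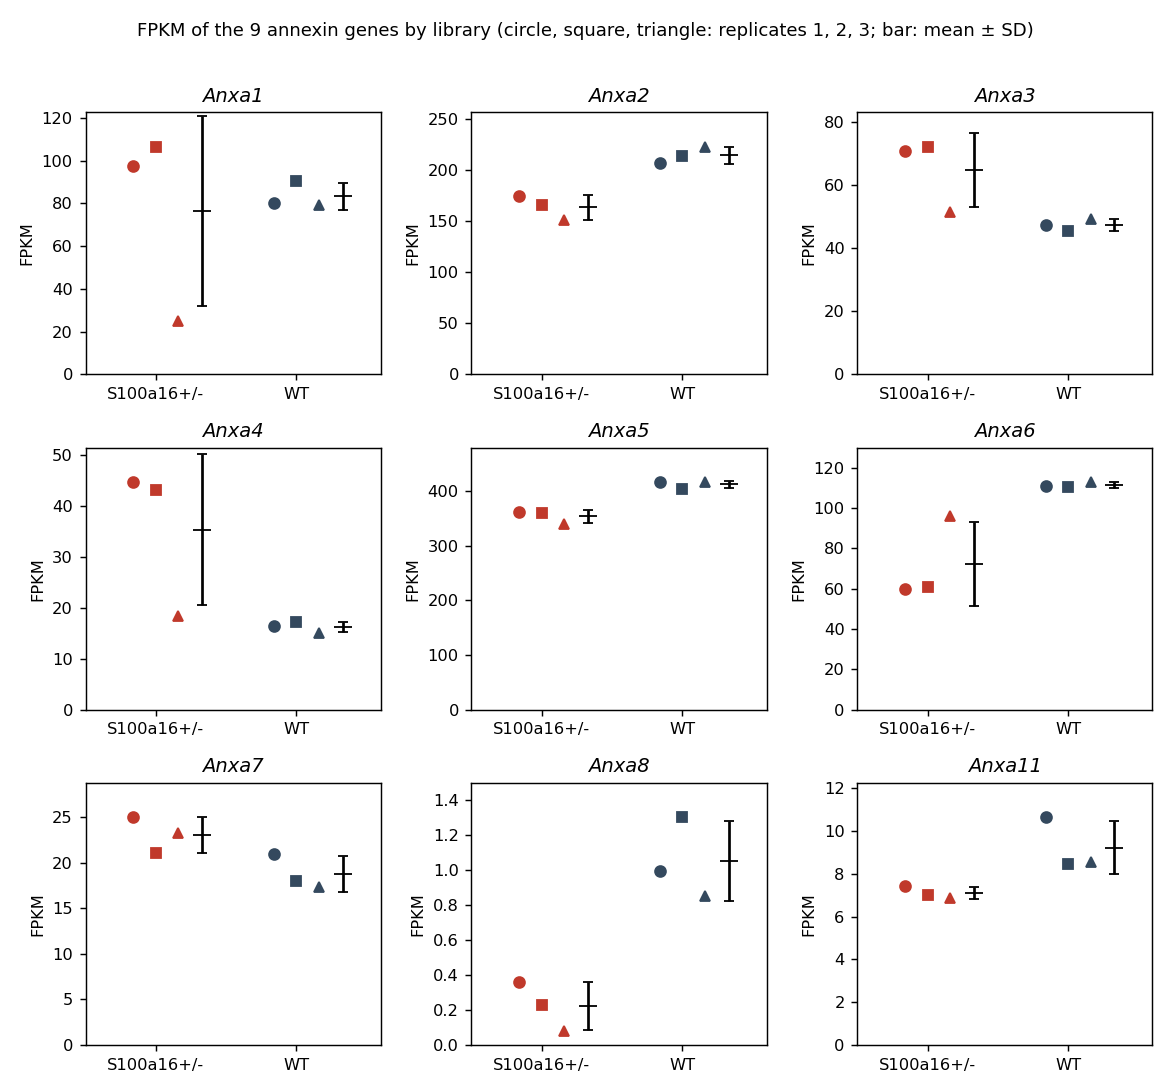
FPKM of each of the 9 annexin genes in the S100a16+/- libraries (left, red) and the WT libraries (right, blue), each axis starting at 0; symbols are replicates and bars the mean ± SD. Anxa1 is the gene whose groups overlap, and in Anxa1, Anxa3, Anxa4 and Anxa6 the triangle of S100a16+/- replicate 3 lies away from replicates 1 and 2.

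The abundant cell-surface annexins Anxa2 and Anxa5 were slightly lower in all 3 S100a16+/- libraries. Anxa2 (ENSMUSG00000032231, chromosome 9, 69453620 to 69491795, plus strand), which at the cell surface helps tissue plasminogen activator make plasmin, had an FPKM of 175, 165 and 150 in S100a16+/- and 206, 213 and 223 in WT. All 3 S100a16+/- libraries were below the lowest WT library. The S100a16+/- libraries averaged 164 ± 12.2 and the WT libraries 214 ± 8.17 (SD, n = 3 each), and the log2 change was -0.34 (SE 0.09, edgeR adjusted p = 0.103). Anxa5 (ENSMUSG00000027712, chromosome 3, 36448923 to 36475894, minus strand) had an FPKM of 361, 360 and 341 in S100a16+/- and 417, 404 and 416 in WT. Its groups did not overlap either, and the gap was small: the S100a16+/- libraries averaged 85.8% of WT, and the log2 change was -0.17 (SE 0.07, edgeR adjusted p = 0.246). The ratio of Anxa5 to Anxa2 stayed between 1.87 and 2.27 in the 6 libraries.

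Anxa6 and Anxa4 lay on opposite sides of WT, and furthest from it in S100a16+/- replicates 1 and 2. Anxa6 (ENSMUSG00000018340, chromosome 11, 54979108 to 55033445, minus strand), the large annexin with a duplicated core that acts in endosome and cholesterol traffic, had an FPKM of 59.7, 60.7 and 96.3 in S100a16+/- and 111, 111 and 113 in WT. As a share of the WT mean, replicate 1 had 53.5%, replicate 2 had 54.5% and replicate 3 had 86.4%. The log2 change was -0.58 (SE 0.19, edgeR adjusted p = 0.153). The endothelial and hepatocyte marker sums were likewise lower in replicates 1 and 2 than in the other 4 libraries. They were 656 and 624 FPKM for endothelial markers and 8.64 and 8.88 FPKM for hepatocyte markers. That held for 7 of the 7 hepatocyte genes and for 6 of the 8 endothelial genes, led by Cdh5. It did not hold for Oit3, at 181, 170 and 74.2 FPKM in S100a16+/- and 171, 172 and 155 FPKM in WT, nor for Clec4g, which was highest in replicates 1 and 2. The part of either cell type in the Anxa6 value was not tested. Anxa4 (ENSMUSG00000029994, chromosome 6, 86736840 to 86793584, minus strand), a membrane-aggregating annexin best known from epithelial cells, had an FPKM of 44.8, 43.1 and 18.3 in S100a16+/- and 16.4, 17.1 and 15.1 in WT. Replicates 1 and 2 were at 276% and 266% of the WT mean, while replicate 3, at 113%, was just above the highest WT library. The log2 change was 1.18 (SE 0.35, edgeR adjusted p = 0.123), larger in size than that of 97.1% of tested genes. The ratio of Anxa4 to Anxa6 was 0.750, 0.709 and 0.190 in S100a16+/- replicates 1 to 3, and 0.148, 0.155 and 0.134 in WT.

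Anxa3 and Anxa7 also had all S100a16+/- values above all WT values. Anxa3 (ENSMUSG00000029484, chromosome 5, 96793339 to 96845966, plus strand), to which the deposited annotation assigns phospholipase inhibitor activity, had an FPKM of 70.9, 72.3 and 51.5 in S100a16+/- and 47.3, 45.6 and 49.4 in WT. As for Anxa4, replicates 1 and 2 carried most of the difference, at 150% and 152% of the WT mean against 109% for replicate 3. The log2 change was 0.51 (SE 0.15, edgeR adjusted p = 0.126). The macrophage marker sums were highest in the same replicates 1 and 2. Of the 10 genes, 5 (Adgre1, Cd68, Clec4f, Lyz2 and Marco) followed that pattern, while Cd5l was highest in replicate 3 and C1qa was lowest in replicates 1 and 2. The stellate and myofibroblast sum was also highest in replicates 1 and 2, at 1092 and 1064 FPKM, but lowest in replicate 3, at 147 FPKM. Of its 10 genes, 3 (Acta2, Des and Tagln) were highest in replicates 1 and 2. The part of either cell type in the Anxa3 value was not tested. Anxa7 (ENSMUSG00000021814, chromosome 14, 20455260 to 20480133, minus strand), or synexin, which fuses membranes and binds the calcium sensors sorcin and ALG-2, had an FPKM of 25.0, 21.05 and 23.2 in S100a16+/- and 21.00, 18.0 and 17.4 in WT. The lowest S100a16+/- library and the highest WT library were nearly level, and replicate 3 did not stand apart. The log2 change was 0.35 (SE 0.10, edgeR adjusted p = 0.128).

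Anxa1 was the member whose groups overlapped. Anxa1 (ENSMUSG00000024659, chromosome 19, 20373428 to 20390944, minus strand) encodes a glucocorticoid-induced protein that damps inflammation and signals through formyl peptide receptors. Its FPKM was 97.4, 107 and 25.2 in S100a16+/- and 80.1, 90.7 and 79.2 in WT. Replicates 1 and 2 were above every WT library, and replicate 3 was at 30.2% of the WT mean. The log2 change of -0.07 (SE 0.51, edgeR adjusted p = 0.957) joined these opposite values. The stellate and mesothelial marker sums were also lowest in replicate 3, at 147 and 10.6 FPKM, as were 7 of the 10 stellate genes and 6 of the 6 mesothelial genes, and their part in the Anxa1 value was not tested.

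Anxa11 and Anxa8 were the members with the lowest levels. Anxa11 (ENSMUSG00000021866, chromosome 14, 25842156 to 25886804, plus strand), which binds S100A6 and ALG-2 and tethers RNA granules to lysosomes, had an FPKM of 7.43, 7.03 and 6.89 in S100a16+/- and 10.7, 8.45 and 8.56 in WT. The 3 S100a16+/- libraries were close together and below WT, where replicate 1 was the highest. The log2 change was -0.32 (SE 0.11, edgeR adjusted p = 0.175). Anxa8 (ENSMUSG00000021950, chromosome 14, 34085981 to 34100571, plus strand), an annexin of late endosomes, had 53, 34 and 11 counts in S100a16+/- and 137, 208 and 130 in WT, or 0.223 ± 0.14 and 1.05 ± 0.229 FPKM (SD, n = 3 each). All 3 S100a16+/- libraries were below WT, with replicate 3 the lowest. Without a filter on low values its log2 change was -2.16 (SE 0.53, edgeR adjusted p = 0.153). The gene A630023A22Rik overlaps Anxa8 on the opposite strand and had up to 21 counts, at most 61.8% of the Anxa8 count of a library. Whether counting used the strand is not given in the sources here, so the Anxa8 level is uncertain. Other genes overlapping members had at most 0.54% of the member's counts.

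**Figure D3:**
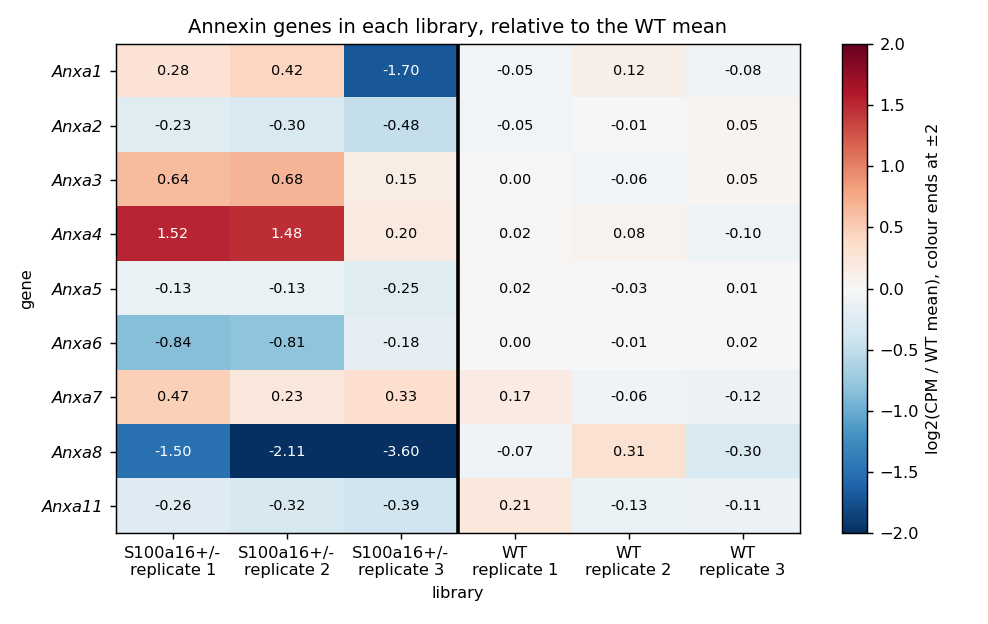
Log2 ratio of TMM-scaled CPM to the WT mean for the 9 annexin genes (rows) in the S100a16+/- libraries (left of the line) and WT libraries (right of it); red is above and blue below the WT mean. Anxa4 stood at 1.52 and 1.48 and Anxa6 at -0.84 and -0.81 in S100a16+/- replicates 1 and 2, while Anxa1 stood at -1.70 in replicate 3.

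With S100a16+/- replicate 3 left out, 6 of the 8 tested annexins were called, in a fit that called 32.3% of 12601 tested genes, 15.8% higher and 16.5% lower. Anxa4 rose, with a log2 change of 1.5 and an SE of 0.06 (edgeR adjusted p = 9.11e-05), as did Anxa3 with 0.66 (SE 0.04, edgeR adjusted p = 0.000359) and Anxa1 with 0.36 (SE 0.08, edgeR adjusted p = 0.0205). Anxa6 was lower, with a log2 value of -0.82 (SE 0.03, edgeR adjusted p = 1.0e-04), as were Anxa2 at -0.27 (SE 0.05, edgeR adjusted p = 0.00879) and Anxa5 at -0.13 (SE 0.03, edgeR adjusted p = 0.0369). Anxa7 and Anxa11 kept similar values of 0.36 and -0.29 and were not called (edgeR adjusted p = 0.0602 and 0.132). Their SD in WT was 10.4% and 13.4% of the mean FPKM, the largest shares among the tested members. Whether that spread kept Anxa7 and Anxa11 from being called was not tested. Only replicates 1 and 2 stand for S100a16+/- in that fit, and the labels do not say whether they are separate animals. Leaving out any of the other 5 libraries called no member, with edgeR adjusted p from 0.167 to 0.992 and 3 to 5 members at an unadjusted p under 0.05. Those fits called 25 to 68 of 12554 to 12615 tested genes, with 1835 to 2102 at an unadjusted edgeR p under 0.05.

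**Figure D4:**
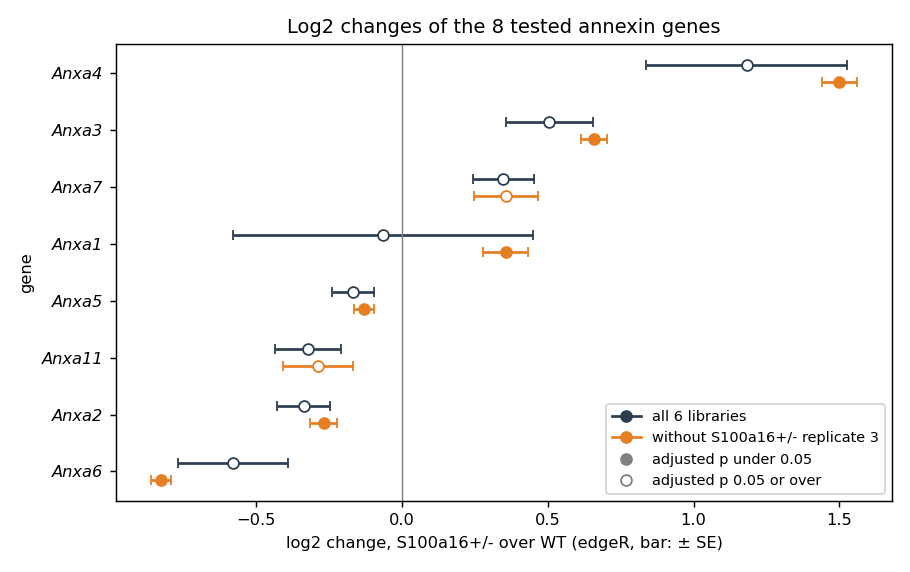
Log2 change of S100a16+/- over WT with its SE for the 8 tested annexin genes, from all 6 libraries (dark) and without S100a16+/- replicate 3 (orange); filled points passed an adjusted p of 0.05. Anxa1 lies at -0.07 with all libraries and at 0.36 without that replicate, and Anxa4 and Anxa6 at 1.18 and -0.58 with all libraries lie further from 0 without it.

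The S100 proteins known to bind annexins held 1 called gene of 5 tested in a list of 6, against 4.46% of all tested genes. S100a10, the light chain that joins Anxa2 molecules at the membrane, fell: its FPKM was 70.0, 66.6 and 69.4 in S100a16+/- and 101, 105 and 107 in WT. The 3 S100a16+/- libraries, replicate 3 included, were close together and all below WT. The log2 change was -0.55 (SE 0.05, edgeR adjusted p = 0.0104), and it was not called when any library other than S100a16+/- replicate 3 was left out (edgeR adjusted p = 0.0571 to 0.0924). The ratio of S100a10 to Anxa2 FPKM was 0.400, 0.403 and 0.461 in S100a16+/- and 0.488, 0.493 and 0.479 in WT. Of the rest, S100a11, a partner of Anxa1, had an FPKM of 760, 745 and 580 in S100a16+/- and 843, 886 and 903 in WT (log2 change -0.28, edgeR adjusted p = 0.267). S100a4, a gene of motile mesenchymal cells and macrophages, had an FPKM of 94.9, 105 and 36.4 in S100a16+/- and 122, 115 and 117 in WT. S100a6, a partner of Anxa11, had 120, 185 and 56.4 in S100a16+/- and 104, 128 and 137 in WT, and S100a1 had 159, 166 and 70.3 in S100a16+/- and 82.3, 84.0 and 82.0 in WT. For each of these, replicate 3 was the lowest S100a16+/- library. Their log2 changes were -0.52, 0.03 and 0.73 (edgeR adjusted p = 0.500, 0.977 and 0.269), and that of S100a6 changed sign with the scaling. S100b was below the filter. The list's median log2 change was -0.28. Without S100a16+/- replicate 3, 1 of the 5 was higher and 2 were lower, in a fit that called 32.3% of all genes.

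Among other partners, receptors of Anxa1 rose. Of 12 tested genes in a list of 14, 2 were higher and none lower, against 2.85% and 1.61% of all tested genes. By unadjusted edgeR p, 6 of the 12 passed 0.05, against 22% of all tested genes. The median log2 change was 0.16. The formyl peptide receptor gene Fpr1 had an FPKM of 172, 187 and 184 in S100a16+/- and 72.5, 75.3 and 74.9 in WT. Fpr2, the receptor of the Anxa1 N-terminal peptide, had an FPKM of 42.3, 43.4 and 47.1 in S100a16+/- and 10.1, 10.2 and 9.62 in WT. In both genes replicate 3 was level with replicates 1 and 2, unlike Anxa1 itself. The log2 changes were 1.34 for Fpr1 (SE 0.06, edgeR adjusted p = 0.00133) and 2.20 for Fpr2 (SE 0.07, edgeR adjusted p = 0.000570), and each was called with any library left out (edgeR adjusted p at most 0.0313 and 0.0133). These receptors belong to phagocytes. The macrophage marker sum was higher in all 3 S100a16+/- libraries, but single markers differed: Marco (log2 change 1.17) and Lyz2 (0.94) were positive, Csf1r (0.09) and Vsig4 (0.02) were near 0, and C1qa (-0.29) and Timd4 (-0.47) were negative. What part macrophage RNA has in the Fpr1 and Fpr2 values was not tested. The genes are neighbouring paralogues on chromosome 17, and how the authors counted reads shared by paralogues is not stated.

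**Figure D5:**
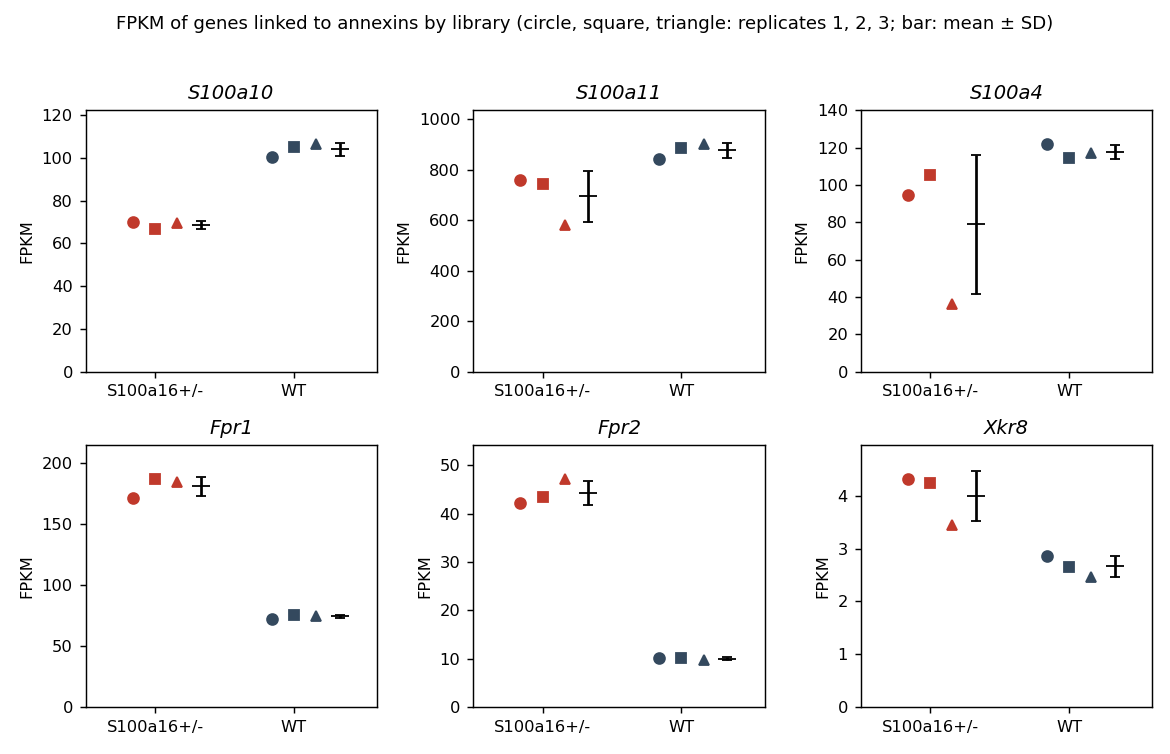
FPKM of 6 genes linked to annexins in the S100a16+/- libraries (left, red) and WT libraries (right, blue), with axes starting at 0 and bars for the mean ± SD. S100a10 (at most 70.0 in S100a16+/- and at least 101 in WT) and Fpr1 and Fpr2 show replicate 3 level with replicates 1 and 2, while in S100a4 and S100a11 replicate 3 is the lowest.

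The machinery that works beside annexins in membrane repair held no called gene. In the list of 22 genes for membrane repair and other calcium-dependent membrane binders (calpains, ferlins, copines, extended synaptotagmins and the ESCRT set), 20 were tested by edgeR and 0 were called, with 4 at an unadjusted p under 0.05 and 4 called by DESeq2, shares near the 22% and 14.9% of all tested genes. The median log2 change was 0.04. The smallest p values belonged to Xkr8, a phospholipid scramblase gene, with an FPKM of 4.32, 4.24 and 3.45 in S100a16+/- and 2.86, 2.66 and 2.47 in WT (log2 change 0.64, edgeR adjusted p = 0.0581), and to the copine gene Cpne3, with 11.3, 11.2 and 12.0 in S100a16+/- and 10.1, 9.83 and 9.93 in WT (log2 change 0.25, edgeR adjusted p = 0.0601). Without S100a16+/- replicate 3, 5 of the 20 were higher and 2 lower, against 15.8% and 16.5% of all genes in that fit.

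The list for phosphatidylserine, the lipid that Anxa5 binds, held no call either. It joins genes that recognise the exposed lipid with Xkr8, which exposes it. Of 11 genes 10 were tested by edgeR and 0 called, with 1 at an unadjusted p under 0.05 and 1 called by DESeq2. Both of those counts were Xkr8 and not a recognition gene. The median log2 change was -0.17. Beside Xkr8, the smallest p belonged to Timd4, a macrophage receptor for phosphatidylserine, with an FPKM of 28.6, 31.8 and 18.0 in S100a16+/- and 36.6, 39.1 and 37.3 in WT (log2 change -0.47, edgeR adjusted p = 0.280). Without S100a16+/- replicate 3, 1 (Xkr8) was higher and 5 were lower, against 15.8% and 16.5% of all genes in that fit.

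The annexin genes outside the 9 were close to or below the limit of the filter. Anxa9 had an FPKM of 1.45, 0.951 and 2.14 in S100a16+/- and 0.868, 1.04 and 1.12 in WT, with groups that overlapped (log2 change 0.63, SE 0.31, edgeR adjusted p = 0.300). Anxa13 had 7, 6 and 12 counts in S100a16+/- and 0, 18 and 11 in WT, and Anxa10 had 4 counts in S100a16+/- replicate 3 and 0 in the other libraries. Neither was tested.

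Genes whose levels followed the most abundant member and the member with the smallest p were read from correlations of log2(CPM + 1) over the 6 libraries, among 12765 other tested genes. For Anxa5 the closest were Plpp6, the pseudogene Gm15427 and Gmeb2, with Pearson's r of 0.996, 0.993 and 0.993. For Anxa2 they were Lix1l, Cip2a and Tbx20, with r of 0.998, 0.998 and 0.997. Lix1l had an FPKM of 14.1, 13.4 and 12.1 in S100a16+/- and 16.6, 17.0 and 17.5 in WT, the same order of libraries as Anxa2. The libraries fall into sets (S100a16+/- replicates 1 and 2, replicate 3, and WT), so these values describe shared steps between the sets.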

How the data were processed

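Messenger RNA of 6 libraries was analysed from a single table. Per the file headers, the authors deposited raw counts per gene and library, which were whole numbers, and FPKM values scaled to gene length and library size. A gene with a count of 0 carried an FPKM of 0.0001 in the deposited table. Per the labels' protocols, poly(A) RNA was made into dUTP-marked libraries with molecular identifiers and sequenced in pairs. Tools listed by the submitters' processing notes are HISAT2 2.0.4, StringTie 1.3.4d, cutadapt 1.9, UMI-tools, edgeR and DESeq2. Not given in the sources used here are the genome build, the role of each tool, any collapsing of identifiers and the use of strand.

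Counts were scaled by TMM and tested with edgeR 4.0.16 (quasi-likelihood, genotype as the only term, R 4.3.3), with Benjamini-Hochberg adjustment over the 12766 genes that reached 1 FPKM in 3 or more libraries. Log2 changes are S100a16+/- over WT, and SE is the log2 change divided by the root of F. The step was also run on simulated counts with known changes. No simulated library stood apart as S100a16+/- replicate 3 did, so that run cannot show how the fit handles such a library. Members, gene lists, marker lists and the rule for named genes (all members, other annexins and annexin-binding S100 genes; up to 4 called genes or the 2 with the smallest p of each other list; the 3 closest genes of 2 members; the 2 markers per cell type with the highest levels) were chosen with earlier results of these data known. The marker Tf was not found under that symbol. Alternatives were DESeq2 1.42.0, limma 3.58.1 on log2(FPKM + 1, 0.1 or 5), other scalings and filters, the replicate number as a block and each library left out. The check of groups on TMM-scaled CPM was chosen after the data were seen.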

Additional observations from a re-analysis of the deposited data

How the results depend on the processing

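The direction of each tested annexin was kept under all 15 alternatives, apart from Anxa1, whose log2 change was 0.36 without S100a16+/- replicate 3 and as low as -0.39 with another library left out. The call status was less stable. DESeq2 called 3 members higher (Anxa3, Anxa4 and Anxa7) and 2 lower (Anxa2 and Anxa6), and leaving out single libraries gave 0 to 3 higher and 0 to 3 lower. The other scalings, filters and limma called none of the members. At an unadjusted p under 0.05 were 6 or 7 of 8 members, and 8 of 9 without a filter, where Anxa8 was included. Many other genes passed as well: 2801 to 2914 of 12766 with the other scalings and limma. The counts were 3582 of 28336 without a filter and 1796 of 7428 with a mean FPKM of at least 5. S100a6, near 0 as reported, had a log2 change of -0.035 with library totals, of -0.18, -0.18 and -0.17 with limma at an added 1, 0.1 and 5 FPKM, of -0.12 with the replicate block, and of -0.43 to 0.38 with single libraries left out. The genes of the annexin-linked lists gave 2 higher and 1 lower calls of 44 tested, and 5 and 3 with DESeq2. Of all tested genes, 4.46% were called by edgeR and 14.9% by DESeq2. With single libraries left out the lists gave 2 to 13 higher and 0 to 10 lower. The largest of these counts came without S100a16+/- replicate 3, where 32.3% of all genes were called. Over all genes the counts were 1125 higher and 763 lower with DESeq2, 162 and 81 without a filter, 137 lower with a mean FPKM of at least 5, and 20 to 1990 higher and 5 to 2076 lower with single libraries left out. The cause of these shifts was not tested.

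With the replicate number as a block, edgeR called 0 genes higher and 0 lower in the table, among the members and in the lists, with 2207 genes, 6 members and 10 list genes at an unadjusted p under 0.05. Fpr1, Fpr2 and S100a10 kept log2 changes of 1.34, 2.20 and -0.55 there (edgeR adjusted p = 0.0722, 0.0595 and 0.132). The numbers were not read as a pairing: same-numbered libraries deviated from their group means with correlations of -0.156, 0.0534 and -0.0806. Low counts limit the precision for Anxa8, while the other members had 1955 or more counts in every library.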

Other observations

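Outside the annexins, 40 genes of the table carry the deposited term for calcium-dependent phospholipid binding, and 11 of them were tested. The term was picked after the data were seen. Of the 11, 1 was called higher and 1 lower over all 6 libraries, against 2.85% and 1.61% of all tested genes. The median log2 change was 0.03. Syt17, a synaptotagmin-related gene, rose, with means of 1.26 in S100a16+/- and 0.706 in WT (log2 change 0.89, SE 0.16, edgeR adjusted p = 0.0437). Plcd1, a phospholipase C gene, fell, with means of 6.41 FPKM in S100a16+/- and 9.05 FPKM in WT (log2 change -0.45, SE 0.08, edgeR adjusted p = 0.0422). Without S100a16+/- replicate 3, 3 were higher and 2 lower of 10 tested, in a fit that called 32.3% of all genes. Plcd1 was still called there, while Syt17 was below the filter. Syt17 averaged less than 1 FPKM in WT, so it could not have passed the filter on its WT libraries alone. Its entry into the test depended on the group where it was higher. Genes as low as this in both groups were left out, so the Syt17 call is not independent of the filter.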
